A study of Mus musculus with 10 samples.

Results

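The arrays described here followed bladders after instillation of substance P (SP) in PAR1-/- mice, which carry a disrupted F2r, the gene encoding the thrombin receptor PAR1. They are 3 of the 10 arrays of the series. One array was hybridized with RNA of bladders taken 4 h after SP, a second with RNA of bladders taken 24 h after SP, and the third with RNA of saline-treated PAR1-/- bladders taken at 24 h. Each was made from 1 pool of 8 bladders of female PAR1-/- mice on a C57BL/6J background, so there was 1 array per condition and no difference could be tested. The other arrays of the series are set beside these for comparison. They came from wild-type (WT) C57BL/6J mice given saline, SP or Escherichia coli lipopolysaccharide (LPS), and from PAR1-/- mice given LPS. Their bladders were taken 4 h or 24 h after SP or LPS, and at 24 h after saline. All probes were used. Of 5030 probes on the Atlas mouse array, spot intensities were recovered for 4999, which stood for 4971 genes, 4576 of them named by a symbol and 395 known only as a probe. The labels give the SP dose of both PAR1-/- SP arrays as 20 µM and that of the WT SP arrays as 10 µM. The study's methods give 1 SP dose for all mice. The only saline array of PAR1-/- mice among the 10 was that of 24 h, so both SP arrays were set against the same 24 h saline array and a difference between saline at 4 h and at 24 h is part of every 4 h ratio.

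SP is a tachykinin released by sensory nerve endings. It acts mainly on the NK1 receptor (Tacr1), a Gq-coupled receptor on endothelium, mast cells and other cells, and in the bladder it causes plasma leakage and inflammation. PAR1 is another G protein-coupled receptor, opened by proteolytic cleavage, and the study asked which part of the inflammatory response depends on it. Setting SP against saline in PAR1-/- bladders asks which transcripts differed after SP where PAR1 was missing.

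In PAR1-/- bladders, Tac2 (the precursor of neurokinin B, another tachykinin), Rgs4 (which shortens signalling by Gq and Gi proteins) and Laptm4a (a membrane protein of late endosomes and lysosomes) were more than 3-fold above saline at both times and were measured above background on all 3 arrays. At 4 h only, Crabp1 (a retinoic acid binding protein), Rbm14 (an RNA-binding coactivator), Pak3 (a p21-activated kinase) and Sec61a1 (a subunit of the translocation channel of the endoplasmic reticulum) were higher. At 24 h only, Thumpd3 (a tRNA methyltransferase) was higher. Dpagt1 (the enzyme that starts the lipid-linked precursor of N-glycans) was lower at both times. Most chemokines and immediate early genes on the array were at background in saline. Of those with a ratio or bound at 4 h, 10 chemokines and receptors and 8 immediate early genes, none passed 3-fold, where 1.29% of all genes with a ratio or bound were higher and 2.35% lower.

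The brightness of the arrays bears on every ratio. The SP 4 h array had a median intensity of 23 and a summed intensity of 309197, the SP 24 h array 16 and 180337, and the saline array 10 and 74438. Of the WT arrays set beside them, SP 4 h had 20 and 278111, SP 24 h 10 and 79024, and saline 11 and 77774, so raw intensities of the PAR1-/- and WT SP 24 h arrays do not compare directly. Among the probes above background on the SP array and on the saline array, the median raw intensity was 4.45-fold higher at 4 h and 2.47-fold higher at 24 h, before normalization. The values were therefore normalized by a robust linear regression, and all ratios below are normalized ratios unless they are called raw. Probes above background (the mode plus 3 SD of the signal below the mode) were 30.3% on the saline array, 46.8% on the SP 4 h array and 40.0% on the SP 24 h array. A gene at background on 1 side can have only a bound, written as "at least" or "at most". For 772 genes at 4 h and 425 at 24 h, the side above background did not exceed the normalized threshold of the other side. Those genes have neither a ratio nor a bound and are not in the shares below. As the only measure of spread available, the 2 saline arrays (WT and PAR1-/-) differed with an SD of 0.48 on the log2 scale, or 1.39-fold, over 1173 probes above background on both, which includes the genotype. The SP ratios had an SD of 0.71 at each time. The 2 saline arrays were close in brightness, unlike the SP and saline arrays. Their SD therefore leaves out the error of scaling arrays of unlike brightness, and the 2 SDs do not compare directly.

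The probe named F2r was at background in both genotypes in saline. After SP it was above background in PAR1-/- bladders only, and after LPS at 4 h in WT bladders only. Its intensity was 11 on the PAR1-/- saline array and 10 on the WT saline array, both at background. It was 51 and 21 on the PAR1-/- SP 4 h and 24 h arrays, where the background thresholds were 24.0 and 19.1, so it was above background on both. On the WT SP arrays it was 22 and 11, at background on both, where the thresholds were 22.4 and 12.1. After normalization the probe was at least 1.00 of saline on the PAR1-/- SP 4 h array. On the PAR1-/- SP 24 h array its signal did not exceed the normalized threshold of saline, so it had neither a ratio nor a bound. Its highest value in the series was 195 on the WT LPS 4 h array, above background, where the PAR1-/- LPS 4 h array had 17, at background. At 24 h after LPS it was at background in both genotypes, with 15 in WT and 18 in PAR1-/- bladders. The sources used here do not give where in F2r the probe lies, so it cannot be said whether it checks the labels, and the arrays are called by their labels throughout.

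At 4 h, 22 genes were more than 3-fold higher and 40 more than 3-fold lower than in saline, which was 1.29% and 2.35% of the 1699 genes with a ratio or a bound. At 24 h, 29 were higher and 32 lower, or 1.60% and 1.76% of 1814. For comparison, the saline array of PAR1-/- mice held 18 genes more than 3-fold above (0.950%) and 10 more than 3-fold below (0.528%) the saline array of WT mice, of 1894 genes. Those 2 arrays were close in brightness, so their counts leave out the error of scaling unlike arrays. Of the 22 genes higher at 4 h, 13 were at background in saline and had only a bound; at 24 h this was so for 14 of 29. The split between higher and lower genes moved with the scaling. At 4 h it was 14 to 271 with a constant shift in place of the regression, 28 to 23 with quantile normalization, 37 to 37 with a regression over the 3 arrays alone and 1434 to 2 with none. At 24 h it was 23 to 53, 42 to 39, 47 to 46 and 596 to 1 under the same 4 settings. The median log2 ratio of all genes was -0.18 at 4 h and -0.08 at 24 h, moved to -0.59 and -0.47 with the shift, and was 0.05 and 0.06 with the regression over the 3 arrays.

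**Figure D1:**
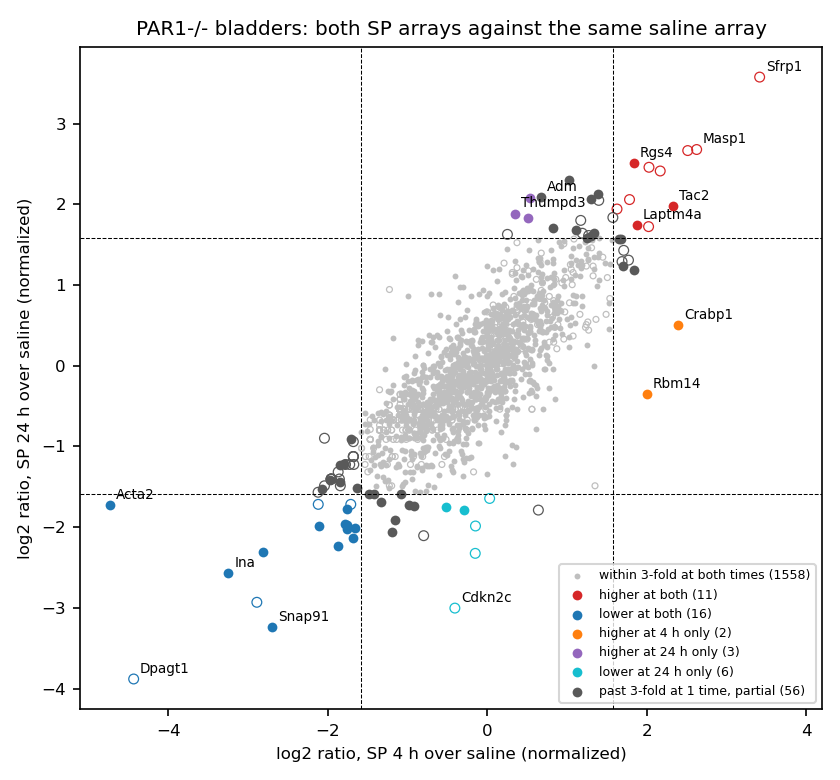
Normalized log2 ratios of SP 4 h over saline (x axis) and SP 24 h over saline (y axis) in PAR1-/- bladders for the 1652 genes with a ratio or a bound at both times; filled points were above background on all arrays compared, open points rest on a bound, and dashed lines mark 3-fold. Both axes share the saline array, so points lie along the diagonal in part because of it. Tac2, Rgs4 and Laptm4a are the filled points more than 3-fold higher on both axes. Crabp1 and Rbm14 are more than 3-fold higher on the x axis only. Filled points more than 3-fold lower on both axes include Acta2, Ina and Snap91.

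Genes higher at both times numbered 11, of which 10 have a symbol. Tac2 had raw intensities of 16 in saline, 448 at 4 h and 175 at 24 h. That was 5.02-fold above saline at 4 h and 3.93-fold at 24 h after normalization. It was also 249 on the WT SP 4 h array against 12 on WT saline, where it was at background, and 204 and 247 on the PAR1-/- LPS arrays at 4 and 24 h. Tac2 was thus bright on all 4 stimulated PAR1-/- arrays and near the threshold of 12.2 in PAR1-/- saline. Rgs4 had 25, 572 and 490 in the same order, 3.58-fold above saline at 4 h and 5.70-fold at 24 h. On the WT arrays Rgs4 was 25 in saline, 581 at 4 h and 39 at 24 h after SP, or 4.86-fold and 1.68-fold above WT saline after normalization, at a different labelled dose. Laptm4a had 24, 555 and 256, 3.67-fold above saline at 4 h and 3.34-fold at 24 h. Its WT values were 23 in saline, 546 at 4 h and 20 at 24 h after SP, or 5.09-fold and 0.84 of WT saline. Tac2, Rgs4 and Laptm4a stayed past 3-fold at both times in each of the 10 alternatives of scaling, background and reference.

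The 3 promoters are shown because these genes were the ones measured above background on all 3 arrays and more than 3-fold higher at both times. Each line gives the 250 bases before the annotated start, 5′ to 3′ on the gene's strand, from RefSeq on GRCm38.p6. Capitals mark the AP-1 motif TGANTCA, the CRE half-site TGACG and the TATA box TATAAA, searched on both strands.
Tac2, chr10:127724228-127724477, + strand: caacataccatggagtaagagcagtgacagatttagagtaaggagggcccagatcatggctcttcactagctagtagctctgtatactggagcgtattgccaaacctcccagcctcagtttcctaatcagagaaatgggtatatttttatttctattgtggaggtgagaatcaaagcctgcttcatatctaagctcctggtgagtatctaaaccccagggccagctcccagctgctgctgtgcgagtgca
Rgs4, chr1:169747643-169747892, - strand: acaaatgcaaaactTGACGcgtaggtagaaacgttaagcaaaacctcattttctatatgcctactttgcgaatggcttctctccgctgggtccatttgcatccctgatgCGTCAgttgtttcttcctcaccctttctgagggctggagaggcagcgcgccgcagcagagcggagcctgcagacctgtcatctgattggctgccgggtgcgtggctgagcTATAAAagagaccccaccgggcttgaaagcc
Laptm4a, chr12:8921057-8921306, + strand: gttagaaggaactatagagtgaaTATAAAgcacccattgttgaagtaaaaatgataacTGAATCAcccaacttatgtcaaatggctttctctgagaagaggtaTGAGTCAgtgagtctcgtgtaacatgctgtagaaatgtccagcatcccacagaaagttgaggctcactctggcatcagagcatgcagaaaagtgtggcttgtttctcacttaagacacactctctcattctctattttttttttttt
The Rgs4 window held 2 CRE half-sites and 1 TATA box, which began 31 bases before the start. The Laptm4a window held 2 AP-1 motifs and 1 TATA box, which began 227 bases before the start. The Tac2 window held none of these letters. Of 32851 promoter windows of the same length, 6.75% held the AP-1 motif, 17.8% the CRE half-site and 12.4% the TATA box. The matches describe the letters only.

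The other 7 named genes higher at both times were at background on the PAR1-/- saline array, so their ratios are bounds. Sfrp1 (a secreted Wnt antagonist) had 9 in saline, 712 at 4 h and 410 at 24 h, at least 10.7-fold and at least 11.9-fold higher. Masp1 (a protease of the lectin pathway of complement) had 10, 387 and 206, at least 6.18-fold and at least 6.40-fold higher. Zfp346, a zinc finger protein, had 6, 355 and 204, and Cct5, a subunit of the TRiC chaperonin, had 12, 272 and 168. Zbtb20 and Meox2, which are transcription factors, had 11, 202 and 128, and 12, 179 and 117. Ltc4s (leukotriene C4 synthase, which mast cells use to make cysteinyl leukotrienes) had 6, 243 and 99, at least 4.07-fold and at least 3.30-fold higher.

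For these genes the dim side was the PAR1-/- saline array and, for several, also the PAR1-/- LPS 24 h array, while the WT saline array was bright. In WT saline, Zfp346 was 68, Cct5 49, Meox2 45, Sfrp1 41, Ltc4s 40, Masp1 38 and Zbtb20 20, all above the WT threshold of 12.4. On the PAR1-/- LPS 24 h array, Zfp346 was 7, Ltc4s 7, Sfrp1 10 and Cct5 16, at background, whereas Masp1 was 217, Zbtb20 124 and Meox2 41, above it. The value 6 was the lowest on the PAR1-/- saline array and 7 the lowest on the PAR1-/- LPS 24 h array. Of 23 probes, 7 of them of called genes, at the lowest value of the saline array, 20 were also at the lowest value of the PAR1-/- LPS 24 h array, and 1 was at the lowest value of the SP 24 h array. Of the 22 genes higher at 4 h, 7 were at background on the PAR1-/- saline and LPS 24 h arrays and above it in WT saline; of the 29 higher at 24 h, again 7. Without such probes, 15 genes were higher at 4 h, 22 at 24 h and 7 at both times. Against the WT saline array, Zfp346, Meox2, Cct5 at 4 h and Ltc4s at 24 h turned to the lower side, with log2 ratios from -0.15 for Cct5 to -0.54 for Meox2 at 4 h. What set these spots to the lowest value was not tested.

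**Figure D2:**
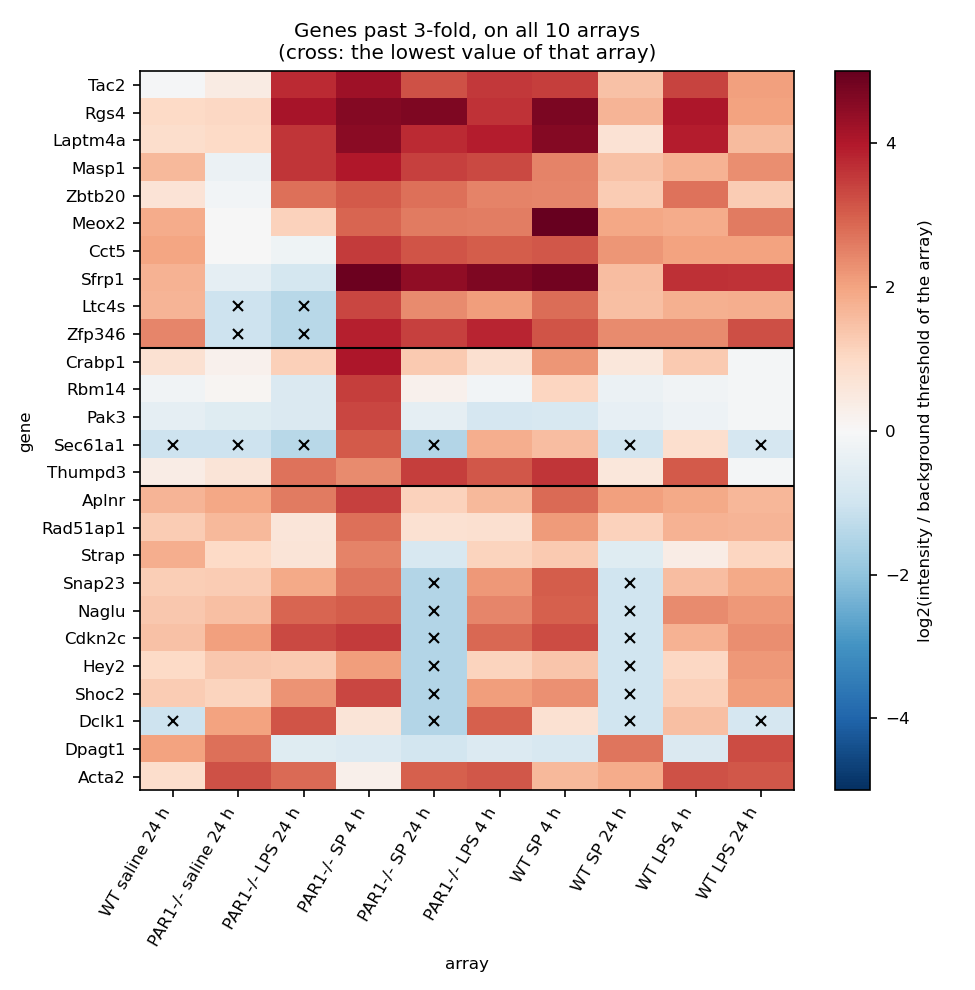
Recovered intensity of 26 genes past 3-fold on all 10 arrays, as log2 of intensity over the background threshold of that array (colour: red above, blue below the threshold; a cross marks a spot at the lowest value of its array). The rows are genes higher at both times (top), higher at 1 time only (middle) and lower (bottom); the crosses of Ltc4s and Zfp346 lie on the PAR1-/- saline and PAR1-/- LPS 24 h arrays, and those of Snap23, Naglu, Cdkn2c, Hey2 and Shoc2 on both SP 24 h arrays.

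Higher at 4 h only were 4 genes, each also more than 3-fold above the SP 24 h array. Crabp1 had raw intensities of 14 in saline, 393 at 4 h and 47 at 24 h, or 5.27-fold above saline at 4 h and 1.42-fold at 24 h. Rbm14 had 13, 261 and 22, or 4.00-fold above and 0.78 of saline. Both were measured above background on all 3 arrays. Pak3 had 8, 243 and 14, at least 4.07-fold above saline at 4 h and at background at 24 h. Sec61a1 had 6, 200 and 7, at least 3.42-fold above saline at 4 h, and its saline and 24 h values were the lowest on their arrays. Sec61a1 was also at the lowest value of the other 24 h arrays, with 6 on WT saline, 7 on PAR1-/- LPS, 9 on WT LPS and 6 on WT SP. It was above background on the other 4 h arrays, with 63 after LPS in PAR1-/- bladders and 39 and 65 after LPS and SP in WT bladders. Without a 4 h saline array, time and stimulus cannot be told apart for Sec61a1. Pak3 was bright on a single array of the series: its other PAR1-/- values were 10 and 11 after LPS, and its WT values after SP were 13 at 4 h and 9 at 24 h. Crabp1 was 102 on the WT SP 4 h array against 21 in WT saline, or 1.33-fold above WT saline after normalization. Without probes at the lowest value of any of the 3 arrays, 3 genes were left in this class.

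A further 7 genes passed 3-fold at 4 h but at 24 h had a ratio between 1.5-fold and 3-fold or a bound below 3-fold, so they belonged to neither class. Cd82, a tetraspanin, had 25, 571 and 177, or 3.57-fold and 2.27-fold above saline, and Eci2, an enzyme of fatty acid oxidation, had 21, 404 and 145, or 3.25-fold and 2.36-fold. Bscl2 (seipin, which shapes lipid droplets) was 9, 188 and 71, Fgd1 (an exchange factor of Cdc42) was 8, 200 and 72, and Pnliprp2 (a lipase) was 9, 191 and 79. Bscl2, Fgd1 and Pnliprp2 each had 10 on the PAR1-/- LPS 24 h array, at background, and 43, 27 and 16 in WT saline, above it. Against WT saline the 4 h log2 ratio of Bscl2 was -0.40.

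**Figure D3:**
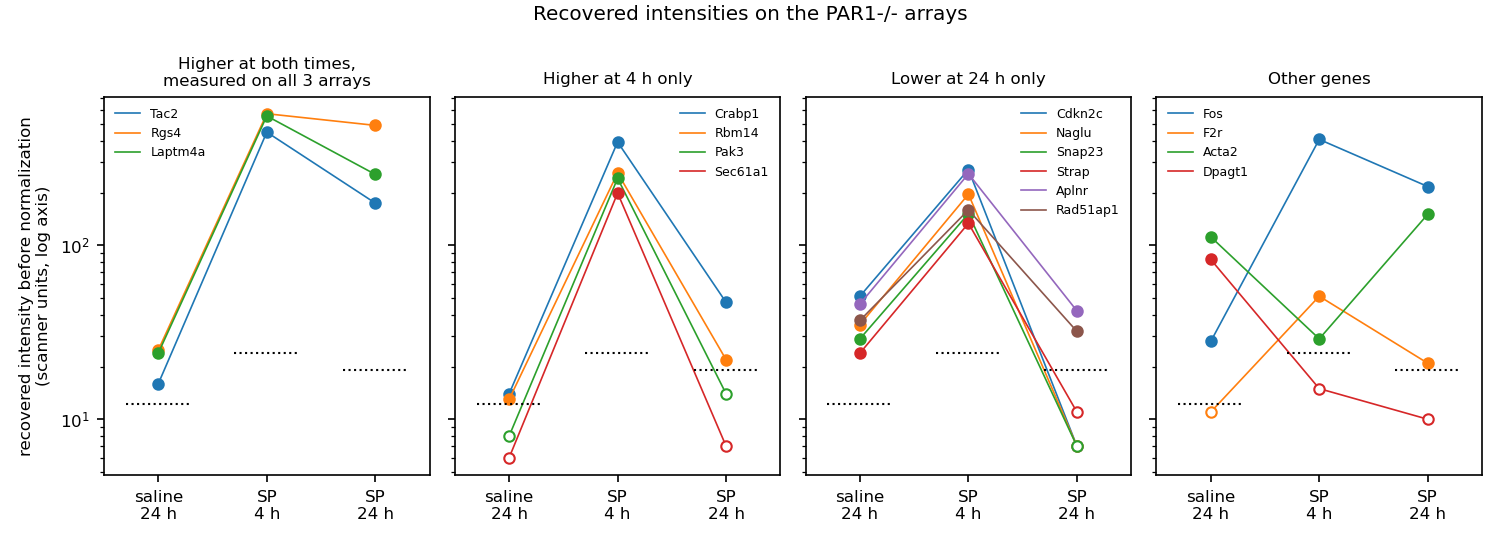
Recovered intensity before normalization (log axis) of named genes on the PAR1-/- saline 24 h, SP 4 h and SP 24 h arrays, 1 array per condition; filled points are above and open points at background, and dotted bars mark the background threshold of each array (12.2, 24.0 and 19.1). Tac2, Rgs4 and Laptm4a stay far above the threshold at 24 h, whereas Crabp1 and Rbm14 come back towards it and Pak3 and Sec61a1 fall under it.

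Higher at 24 h only were 3 probes, of which 1 has a gene name. Thumpd3 had 19 in saline, 124 at 4 h and 207 at 24 h, or 1.28-fold and 3.69-fold above saline. It was brighter at 24 h than at 4 h although the 24 h array was the dimmer of the SP arrays. The direct ratio of the 4 h to the 24 h array, which does not use the saline array, was 0.35 and did not reach 3-fold. On the WT arrays Thumpd3 was 16 in saline, 263 at 4 h and 18 at 24 h after SP, or 4.18-fold and 1.14-fold above WT saline.

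Another 15 genes passed 3-fold at 24 h with a smaller difference or a lower bound at 4 h. Ercc5, a nuclease of nucleotide excision repair, had 23, 273 and 371, or 2.04-fold and 4.92-fold above saline. Adm (adrenomedullin, a vasodilator peptide) had 25, 233 and 353, or 1.60-fold and 4.24-fold. Pira1, a paired immunoglobulin-like receptor, had 21, 318 and 286, and Tnfrsf18 (GITR, a receptor of the TNF family on T cells) had 18, 239 and 221, or 2.46-fold and 4.19-fold. Rbx1, the RING subunit of cullin ubiquitin ligases, had 6, 150 and 127, and its saline value was the lowest on that array. Rpsa, a protein of the small ribosomal subunit, had 11, 62 and 92 and was at least 3.09-fold higher at 24 h. In WT bladders, Adm was 25 in saline, 226 at 4 h and 29 at 24 h after SP, or 2.14-fold and 1.18-fold above saline. Ercc5 was 30, 429 and 20 there, with log2 ratios of 1.59 and -0.72. After LPS in PAR1-/- bladders, against the same saline array, the log2 ratios at 4 and 24 h were 1.93 and 1.43 for Adm and 1.90 and 1.89 for Ercc5. Adm, Ercc5 and Thumpd3 at 24 h stayed past 3-fold in all 10 alternatives of scaling, background and reference.

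Genes lower at both times numbered 16, of which 13 have a symbol. Dpagt1 had 83 in saline, 15 at 4 h and 10 at 24 h, both at background, so that it was at most 0.05 and at most 0.07 of saline. Dpagt1 was the only gene lower at both times in all 10 alternatives. It was also at background on both PAR1-/- LPS arrays (11 and 12) and on the WT SP 4 h array (13), but 78 on the WT SP 24 h array against 50 in WT saline, or 1.67-fold above it. Acta2, the actin of smooth muscle, had 112, 29 and 151, or 0.04 of saline at 4 h and 0.30 at 24 h. Its raw intensity was lower at 4 h and higher at 24 h than in saline. In WT saline Acta2 was 23, and against that array the 24 h log2 ratio was 1.26, in the other direction. In these bulk samples, fewer cells of a type and less RNA per cell cannot be told apart.

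Other genes lower at both times differed less from saline in raw intensity than most spots of the brighter SP arrays did. Ina (alpha-internexin, a neuronal intermediate filament protein) had 423, 577 and 497, or 0.11 and 0.17 of saline. Snap91 (AP180, an assembly protein of clathrin-coated synaptic vesicles) had 309, 569 and 193, or 0.15 and 0.11. Scand1, a SCAN domain protein, had 549, 1161 and 867, or 0.14 and 0.20. Cbx2, a Polycomb protein, had 168, 503 and 211, and Hoxd10, a homeobox factor, had 154, 473 and 171. Gap43 (a protein of growing axons), Pspn (persephin, a GDNF family ligand) and Siah1b (a ubiquitin ligase) were dim, with 25, 37 and 18, with 42, 56 and 32, and with 59, 115 and 52. Xrn2 (a nuclear exoribonuclease, named after its values were seen) had 75, 177 and 70, and Ppp1r17, a phosphatase inhibitor, had 155, 450 and 228. The PAR1-/- LPS arrays were set against the same saline array, and there the 16 genes lower at both times after SP had a median log2 ratio of -1.85 at 4 h and -1.88 at 24 h. The 11 genes higher at both times after SP had a median of 2.27 at LPS 4 h, and the 6 of them with a ratio or bound at LPS 24 h had 2.05. A difference carried by the shared saline array and one carried by the stimulated arrays cannot be told apart in these values. Of the 40 genes lower at 4 h, 8 also had a raw intensity below saline, and of the 32 lower at 24 h, 20 did. All but Dpagt1, Acta2 and Dclk1 of the named genes lower at both times were brighter in raw intensity at 4 h than in saline.

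Lower at 24 h only were 6 genes. Cdkn2c (p18, an inhibitor of CDK4 and CDK6) had 51, 273 and 7, or 0.76 of saline at 4 h and at most 0.12 at 24 h. Naglu (a lysosomal enzyme that degrades heparan sulfate) had 35, 197 and 7, and Snap23 (a SNARE protein of exocytosis) had 29, 152 and 7. Strap had 24, 134 and 11 and was at background at 24 h. Aplnr (the apelin receptor of endothelium) had 46, 258 and 42, or 0.82 and 0.29 of saline, and Rad51ap1 (a factor of homologous recombination) had 37, 160 and 32, or 0.70 and 0.30. Aplnr and Rad51ap1 were measured above background on all 3 arrays.

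The value 7 was the lowest on the SP 24 h array, and Cdkn2c, Naglu and Snap23 were at it. All 9 probes at the lowest value of the PAR1-/- SP 24 h array were also at the lowest value of the WT SP 24 h array, which was 6 and held 10 such probes. They included Hey2 (31, 101 and 7), Shoc2 (26, 240 and 7) and Dclk1 (49, 38 and 7), which were among the genes lower at 24 h. On the PAR1-/- LPS 24 h array the same genes were well above its threshold of 18.4, with 183 for Cdkn2c, 138 for Naglu, 69 for Snap23, 46 for Hey2, 88 for Shoc2 and 162 for Dclk1. Dclk1 was lower at both times, at 0.14 of saline at 4 h and at most 0.13 at 24 h. It was also at the lowest value of the WT saline array (6) and of the WT LPS 24 h array (9). Without probes at the lowest value of an array, 3 genes remained lower at 24 h only and 26 were lower at 24 h in all. The 2 SP 24 h arrays came from different mice and genotypes, and what they share was not tested.

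No gene was lower at 4 h only. Of the 24 genes lower at 4 h that were not settled at 24 h, Klf9, a Krüppel-like factor, had 285, 893 and 696, or 0.26 and 0.37 of saline. Efna5, an ephrin ligand, had 25, 28 and 22. Map3k2, Map3k7 (TAK1, a kinase of the NF-kB and MAP kinase pathways), Mcpt1 (a mast cell chymase) and Tpm3 (a tropomyosin) were between 21 and 23 in saline and at background at 4 h, with 18, 15, 18 and 17. Lower at 24 h with a smaller change at 4 h were Slc26a4 (64, 203 and 54), Oat (44, 149 and 41) and Rel, a subunit of NF-kB (233, 1443 and 415), at 0.44, 0.53 and 0.51 of saline at 4 h and 0.24, 0.30 and 0.30 at 24 h.

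The 2 SP arrays were also compared directly. In that ratio, 10 genes were more than 3-fold higher at 4 h than at 24 h (0.476% of 2103 with a ratio or a bound) and 6 were more than 3-fold lower (0.285%). Without probes at the lowest value of an array, 5 were higher at 4 h. Acta2 had the lowest ratio of 4 h to 24 h among these genes, at 0.12. Rdx (radixin, which links actin to the membrane), chosen after its values were seen, had the highest, at least 7.16. Cdkn2c, Pak3, Shoc2 and Rbm14 were at least 6.05, at least 5.45, at least 5.39 and 5.12 times as high at 4 h.

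Genes of the pathways that the study is about were read from lists. Over all genes with a ratio or bound, 1.29% were higher and 2.35% lower at 4 h, and 1.60% and 1.76% at 24 h. Counts as small as those of the lists below set no list apart. Of 8 genes for tachykinins, their receptors and peptidases, 2 had a ratio or bound at each time and only Tac2 passed 3-fold. Tac1, which encodes SP itself, and the receptors Tacr1 and Tacr2 were at background on all 3 PAR1-/- arrays, with Tacr1 at 9, 10 and 11. Tacr1 was 70 on the WT SP 4 h array, above its threshold of 22.4. Ramp1, part of the CGRP receptor, was 23, 89 and 51, or 0.75 and 0.82 of saline. Of 25 genes of Gq, phospholipase C and calcium signalling, Rgs4 alone passed 3-fold, and 6 had a ratio or bound at 4 h with a median log2 ratio of 0.10. Prkcb and Prkch, which are protein kinase C isoforms, were 0.79 and 1.38 of saline at 4 h.

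Of 17 genes of the PAR family and the thrombin pathway, 7 had a ratio or bound at each time and none passed 3-fold. F2rl2 (PAR3) was at background throughout, with 9, 23 and 16, and F2rl3 (PAR4), with 8, 30 and 19, was above background at 4 h only. Tfpi2, an inhibitor of serine proteases, was 30, 63 and 36, or 0.39 and 0.43 of saline. Plau (urokinase) was 37, 258 and 197, or 1.07 and 1.53, and Serpinc1 (antithrombin) was 14, 47 and 25, or 0.78 and 0.80.

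Of 19 immediate early genes with recovered values, 8 had a ratio or bound at 4 h and none passed 3-fold. Fos was 28 in saline, 407 at 4 h and 218 at 24 h, or 2.29-fold and 2.38-fold above saline. On the WT arrays it was 25 in saline, 1080 at 4 h and 62 at 24 h after SP, or 8.32-fold and 2.92-fold above WT saline. On the PAR1-/- LPS arrays Fos was 262 at 4 h and 254 at 24 h, or 3.01-fold and 2.84-fold. Egr3 was 17, 133 and 62, or 1.56 and 1.43 of saline, and Ccn1, a matrix protein induced by growth factors, was 18, 104 and 91, or 1.17 and 1.88.

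Of 30 genes of the NF-kB pathway and acute cytokines, 7 had a ratio or bound at 4 h, with a median log2 ratio of -0.89, and 7 at 24 h, with -0.54, beside -0.18 and -0.08 for all genes. With the regression over the 3 arrays these medians were -0.47 and -0.32. No member was higher and Rel was the 1 that was lower. Relb was 22, 81 and 46, or 0.72 and 0.79. The list of interferon response and antigen presentation had 35 members, of which 18 had a ratio or bound at 4 h. Its median log2 ratio was -1.02 at 4 h and -0.51 at 24 h, or -0.64 and -0.32 with the regression over the 3 arrays, and no member passed 3-fold. Irf1 was 26, 62 and 51, or 0.46 and 0.70, H2-Ab1 (a class II antigen) was 95, 317 and 267, or 0.40 and 0.62, and Irf2 was 16, 156 and 126, or 1.95 and 2.92. Most members of the interferon list lay within a few units of the saline threshold, and the list's 4 h median was -1.53 with the shift and -0.47 with quantile normalization.

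Of 37 chemokines and chemokine receptors with recovered values, 10 had a ratio or bound at 4 h, with a median log2 ratio of 0.17, and none passed 3-fold. Ccl2, which attracts monocytes, was 31, 246 and 173, or 1.28 and 1.70 of saline. Ccl4 was 26, 277 and 200, or 1.78 and 2.42, and Ccl7 was 19, 29 and 31, or 0.35 and 0.66. Among 25 genes of prostanoid, leukotriene and nitric oxide synthesis, Ltc4s was the 1 past 3-fold. Alox12, an arachidonate lipoxygenase, was 49, 859 and 566, or 2.22 and 2.80, Pla2g5 was 22, 40 and 21, or 0.38 and 0.39, and Ltb4r1, the leukotriene B4 receptor, was 30, 163 and 62, or 0.92 and 0.70.

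**Figure D4:**
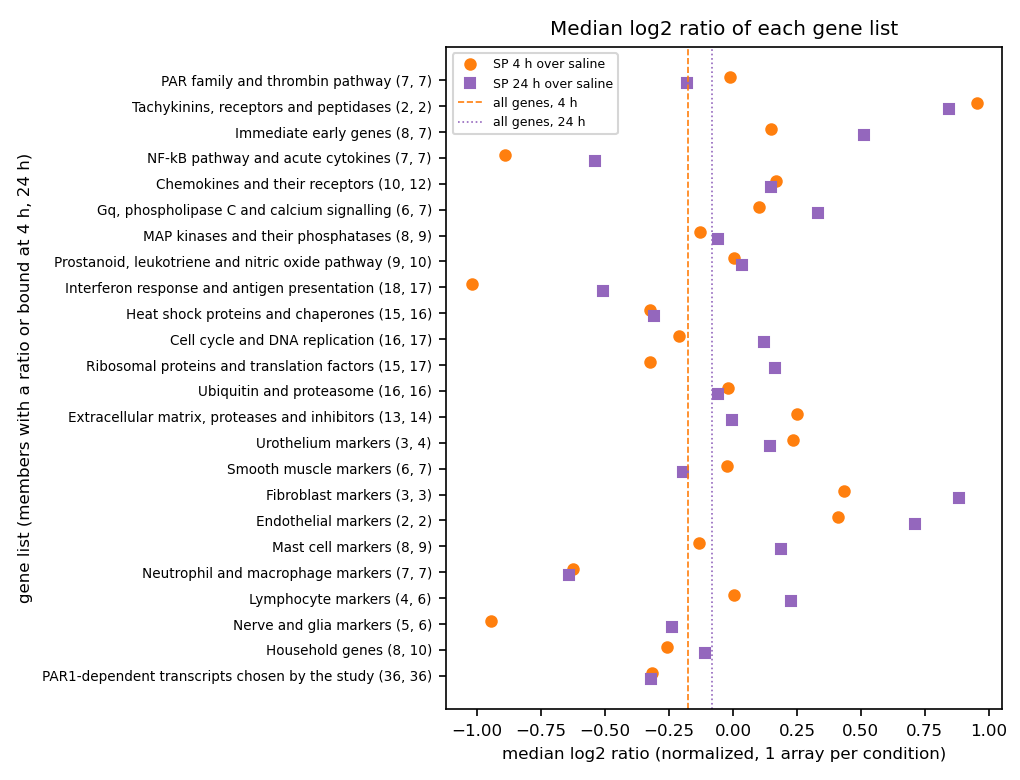
Median normalized log2 ratio over saline of the members of 24 gene lists with a ratio or bound (their number at 4 h and 24 h in brackets), at 4 h (circles) and 24 h (squares), 1 array per condition; vertical lines give the median of all genes. The interferon and NF-kB lists lie at the left at both times, as does the neutrophil and macrophage list, which lies furthest left at 24 h. The nerve and glia list lies left of the NF-kB list at 4 h. Lists of 2 or 3 members rest on few genes.

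The housekeeping and growth lists held 0 to 2 called genes each at a time, of 8 to 17 with a ratio or bound, where over all genes 1.29% were higher and 2.35% lower at 4 h and 1.60% and 1.76% at 24 h. Counts this small set no list apart. Of 45 cell cycle genes, Cdkn2c was the 1 called, and Cdc25b (1.80 and 1.61 of saline) and Rrm1 (0.49 and 0.91) were measured at both times. Of 35 ribosomal proteins and translation factors, Rpsa was the 1 higher at 24 h, Rps2 was 0.79 and 1.97 of saline, and Rps29 and Rps4x were 0.43 and 0.38 at 4 h. Another probe of Rps29 was 0.72 of saline at 4 h and 0.79 at 24 h, and its remaining probe was at background on all 3 arrays. Of 29 heat shock proteins and chaperones, Cct5 was higher at both times, Tcp1 was 0.87 and 1.82, and Dnaja1 was 0.49 and 0.45. Of 40 genes for ubiquitin and the proteasome, Rbx1 was higher at 24 h, and Psma5 and Skp2 were 0.78 and 0.54 at 4 h. Of 25 MAP kinases and their phosphatases, Map3k2 and Map3k7 were lower at 4 h, while Dusp2 was 0.90 and 1.09 and Map2k6 0.93 and 0.65. None of 44 genes for matrix, proteases and inhibitors was called; Mmp12 (macrophage elastase) was 15, 175 and 114, or 2.34 and 2.89, Cstb 2.26 and 2.46, and Ctsb 0.44 and 0.85. Of 15 household genes none was called, Gapdh was 1.52 and 0.58 and Actb 0.81 and 0.51. Another probe of Gapdh had log2 ratios of -0.15 and 0.19, against 0.61 and -0.78 for the probe used. The other probes of Actb were at background on all 3 PAR1-/- arrays.

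The tissue was read from marker lists. Of 12 urothelial markers, 3 were above background in saline, 6 at 4 h and 5 at 24 h, and their summed intensity was 154, 609 and 413. The uroplakin on the array, Upk2, was 10, 31 and 18, so it was above background at 4 h only. Cdh1, Cldn3 and Epcam were measured above background on all 3 arrays. Of 12 smooth muscle markers, 4, 8 and 7 were above background, with summed intensities of 241, 589 and 446, and Acta2 alone was called. Vcl was 0.92 and 0.52 of saline and Myl6 1.15 and 0.87. The summed intensity of 14 mast cell markers was 361, 2487 and 1669. Kit was 93, 953 and 766, or 1.10 and 1.65 of saline, Cd63 was 1.30 and 1.43, and Mitf 0.84 and 0.56. Mcpt1 was the 1 member called, with 22 in saline and 18 and 15, at background, after SP, at most 0.24 of saline at 4 h and at most 0.36 at 24 h. The other mast cell protease genes Cma1, Mcpt2 and Tpsb2 were at background on all 3 arrays. The summed intensity of 21 neutrophil and macrophage markers was 362, 2144 and 1404, with Mpo (myeloperoxidase) at 99, 1272 and 867, or 1.31 and 1.71, Cybb at 0.36 and 0.41, and S100a8 at background throughout. At each time 7 of these markers had a ratio or bound. Their median log2 ratio was -0.62 at 4 h and -0.64 at 24 h, beside -0.18 and -0.08 for all genes. Of the 7, 2 were above saline at 4 h and 3 at 24 h. The 21 lymphocyte markers summed to 324, 1741 and 1248, with Zap70 at 1.21 and 1.59. Ptprcap was 1.20 and 1.30 of saline and Cd28 0.74 and 0.68. Of 10 fibroblast markers none was called, with Pdgfra at 1.35 and 1.84 and Vim at 0.49 and 0.54, and of 11 endothelial markers with recovered values none was called, with Tie1 at 1.68 and 2.44. Of 21 nerve and glia markers, Gap43 and Ina were lower at both times, while Gdnf was 1.15 of saline at 4 h and Th 0.52 at 4 h and 0.79 at 24 h. Upk2, Cma1, Mcpt2, Tpsb2 and S100a8 were chosen as defining markers after their values were seen. These sums were larger on the brighter arrays, and the part of cell content in the results was not tested.

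The study drew up a list of transcripts that it called PAR1-dependent, of which 72 were matched to genes here. It was chosen on these samples, so its direction here is no independent evidence. Of these 72 genes, 36 had a ratio or bound at 4 h and 36 at 24 h, with a median log2 ratio of -0.32 at each time. None was higher, and Ina was the 1 that was lower, at both times. Over all genes with a ratio or bound, 1.29% were higher and 2.35% lower at 4 h, and 1.60% and 1.76% at 24 h. With the regression over the 3 arrays the medians were 0.02 and -0.07, close to the median of all genes.

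**Figure D5:**
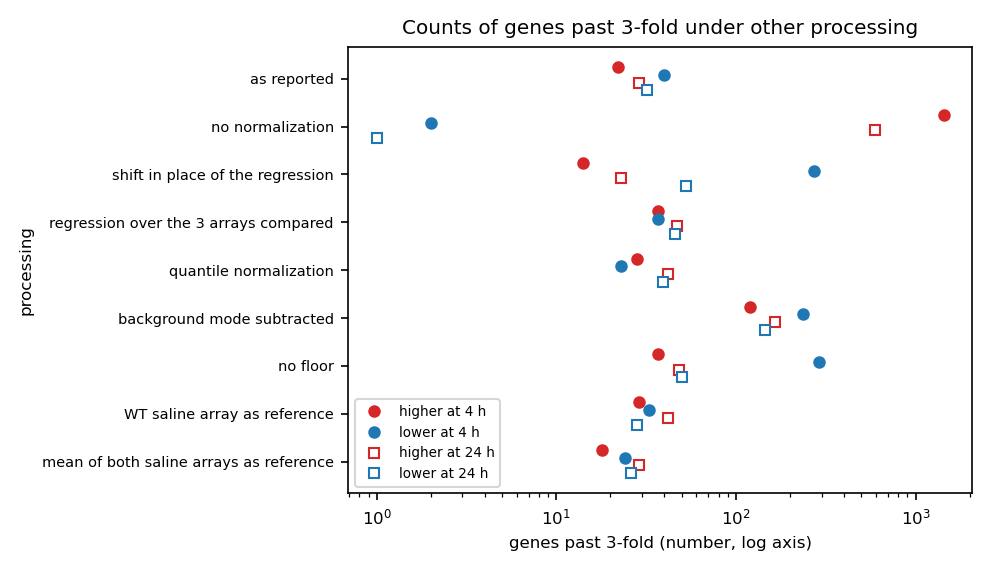
Number of genes past 3-fold (log axis) higher (red) or lower (blue) than saline at 4 h (filled circles) and 24 h (open squares) in PAR1-/- bladders, as reported (22, 40, 29 and 32) and under 8 other ways of processing. Without normalization nearly all genes past 3-fold are higher, and with a shift in place of the regression 271 are lower at 4 h.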

How the data were processed

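RNA of 8 pooled bladders per condition was labelled with 33P and hybridized to Clontech Atlas mouse plastic arrays, read with AtlasImage 2.7 per the study's methods. Agent and time came from each sample's treatment text in the labels, and genotype from the series' design text, which lists it by sample. The values deposited by the authors were scores. Their form, log2 intensity centred and scaled per probe over the 10 arrays, was inferred from the values themselves. Whole-number intensities that fit all 10 scores of a probe were searched and found for 4999 of 5030 probes, and 31 were left out. Of all probes, 4633 have 1 gene, 5 several and 392 none; 4624 matched the RefSeq table by Entrez ID.

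Intensities were normalized by robust linear regression of log2 values on the mean of the 10 arrays over 576 probes above background (mode plus 3 SD) on all of them. Dimmer values were set to the threshold, and ratios past 3-fold were called. A gene differed at 1 time only if its other ratio was within 1.5-fold or both arrays were at background. Tools were R 4.3.3, MASS 7.3.60.0.1, limma 3.58.1 (quantile alternative), Python 3.11.15, numpy 2.4.6 and pandas 2.3.3, and the scripts were tested on simulated data. With 1 array per condition no test was made, and the number of arrays limits the precision.

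Named genes were PAR and tachykinin genes and Fos, the largest past 3-fold in each class, list members past 3-fold, and up to 3 further members per list measured at both times; the probe with the highest mean stood for a gene. The members and 24 lists were chosen with earlier results of these data known. Of 5 pairs of probes of 1 gene, the median correlation over the arrays was -0.158, against 0.167 for 2000 random pairs, which limits how far a gene name can be read.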

Additional observations from a re-analysis of the deposited data

How the results depend on the processing

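No paired analysis was possible because each condition was 1 pool on 1 array, and for the same reason no replicate could be left out. Of the 16 alternatives, those that leave probes out were chosen after seeing the data. The median log2 ratio of all genes went from -0.59 to 1.81 over the scalings at 4 h. In what follows, counts are given as higher and lower. Without normalization there were 1434 and 2 at 4 h, 596 and 1 at 24 h, 576 and 1 at both times, 134 and 1 at 4 h only, 0 lower at 24 h only, and 144 and 1 between the times. The shift gave 14 and 271 at 4 h, 53 lower at 24 h, 32 lower at both, 2 and 5 at 4 h only and 18 lower between the times. The regression over the 3 arrays gave 37 higher at 4 h, 47 at 24 h and 17 at both, and quantile normalization gave 23 lower at 4 h. Subtracting the background mode gave 119 and 237 at 4 h, 165 and 145 at 24 h, 76 and 71 at both, 8 and 11 at 4 h only, 5 and 17 at 24 h only, and 41 and 70 between the times. No floor gave 37 and 291, 48 and 50, 25 and 29 at both, 38 lower at 4 h only, 6 higher at 24 h only and 16 higher between the times. A 2-fold limit gave 103 and 303, 131 and 157, 68 and 87 at both, 14 and 35 at 4 h only, 20 and 28 at 24 h only, and 34 and 70 between the times. A 5-fold limit gave 5 and 6, 6 and 6, 3 and 4 at both, 1 higher at 4 h only, 0 higher and 2 lower at 24 h only, and 5 and 1 between the times. The mean of both saline arrays gave 24 lower at 4 h, 9 at both and 2 at 4 h only. The WT saline array gave 18 and 10 at both and 2 lower at 4 h only. Of the genes at 4 h, 9 of the 22 and 11 of the 40 were called with it too. At 24 h it was 14 of the 29 and 14 of the 32. Of the genes called at both times, only 4 of the 11 higher and 4 of the 16 lower were called at both times with the WT saline array. A threshold of 5 SD left 2 higher at 4 h only. A 2-fold limit for no change gave 5 and 10 at 24 h only and 3 lower at 4 h only. Without probes at the lowest value of an array, 3 were lower at 24 h only and 5 higher between the times. Without probes at background on the PAR1-/- saline and LPS 24 h arrays and above it on WT saline, 7 were higher at both. Against WT saline the log2 ratio turned for Acta2 (1.26) and Ltc4s (-0.24) at 24 h, Bscl2 (-0.40) and Cct5 (-0.15) at 4 h, Meox2 (-0.54 and -0.23) and Zfp346 (-0.37 and -0.22). Without normalization it turned for Acta2 (0.43) and Rel (0.83) at 24 h, for Efna5 (0.16), Gap43 (0.57), Klf9 (1.65), Pspn (0.41), Siah1b (0.96) and Snap91 (0.88) at 4 h, and for Cbx2 (1.58 and 0.33), Hoxd10 (1.62 and 0.15), Ina (0.45 and 0.23), Ppp1r17 (1.54 and 0.56) and Scand1 (1.08 and 0.66) at both. Of the other values of single genes, 2113 moved by less than 0.48 on the log2 scale and 540 by more. The causes were not tested.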
